A study of Mus musculus with 22 samples.

Results

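Teneurins, latrophilins and FLRT proteins form 3 connected families of cell-surface adhesion molecules, and the RNA of their genes was followed here across the purified photoreceptors and bipolar cells of the mouse retina. The genes were picked by name, not by level: the 4 teneurins Tenm1 to Tenm4, the 3 latrophilins Adgrl1 to Adgrl3 (Lphn1 to Lphn3 in older annotations) and the 3 FLRT genes. Ensembl identifiers of the deposited table were matched to symbols through GENCODE M21, and 9 of the 10 genes were found among 13812. Flrt1 was not analysed here. All 9 passed the filter on low values, which asked 1 or more groups to have both libraries at a log2 CPM (read counts scaled to library size) of 0 or above, although Tenm1 did so only through the bipolars at P30 and the rod bipolars.

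Cells of 5 kinds were sorted from retina, 2 libraries for each of 11 groups. The libraries cover bipolars, rods and cones at 3 ages, postnatal day 7 (P7), day 13 (P13) and day 30 (P30). The rod bipolar and cone bipolar groups are from P13 alone. The series' design text calls the bipolars ON-bipolar cells, the class that depolarises to light. Strain, sex, sort marker and number of animals were not stated in the labels used here, and no treatment or mutation is named for any group. Whether the 2 libraries of a group are from different animals is likewise not stated. The p-values therefore reflect library-to-library spread, which may be technical.

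A teneurin is a large type II membrane protein that binds latrophilins, adhesion G-protein-coupled receptors, on a facing cell, and that can also bind its own kind. FLRT proteins carry leucine-rich repeats and bind both latrophilins and the netrin receptors of the UNC5 family, so that the 3 families can join in 1 complex across a synapse. In mouse hippocampus Tenm3 and Adgrl2 sort axons onto their targets, Adgrl3 needs both kinds of ligand to promote synapses, and Tenm3 is known from the wiring of the visual pathway. RNA levels say nothing of which protein reaches a synapse or of which pair meets there.

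The libraries held 14.4 to 54.4 megareads recovered from the table, and 3 reads over both libraries of a group, the floor used below, equalled 0.0275 to 0.0766 CPM. Summed levels of the 7 rod markers ran from 127 to 379 CPM in bipolars, from 17961 to 45720 CPM in rods and from 3279 to 9803 CPM in cones. The 7 cone markers ran from 23.5 to 322 CPM in rods and from 15747 to 51415 CPM in cones, and the 7 bipolar markers from 5950 to 8941 CPM in bipolars and from 828 to 2171 CPM in rods, where Grm6 had no reads at any age. The 4 rod bipolar markers summed to 6989 and 8526 CPM in rod bipolars and to 438 and 309 CPM in cone bipolars, and the 5 cone bipolar markers to 77.1 and 63.2 CPM in rod bipolars and to 1376 and 1033 CPM in cone bipolars. The rod and cone lists were thus highest in their own sorts and the bipolar lists in bipolar sorts, but other lists were measurable. Rod markers summed to 525 to 949 CPM in rod bipolars and 704 to 1289 CPM in cone bipolars. The 3 horizontal cell markers measured summed to 540 to 790 CPM in bipolars, 1469 to 1614 CPM in rod bipolars and 946 to 1069 CPM in cone bipolars. In P30 bipolars the Müller glia markers reached 4787 and 7535 CPM, beside 6622 and 5950 CPM for the bipolar markers. The part of these in the results below was not tested. In such bulk samples, fewer cells of a type and less RNA per cell cannot be told apart.

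For 4 of the 9 genes a RefSeq start lay within 10 bases of the GENCODE gene start. The 250 bases upstream of it (RefSeq, build GRCm38.p6) are shown because these genes carry the contrasts described below. Adgrl1, at chr8:83899848-83900097 on the plus strand, was bipolar-high at every age. Flrt3, at chr2:140671477-140671726 on the minus strand, and Flrt2, at chr12:95691976-95692225 on the plus strand, are relatives with unlike patterns. Tenm4, at chr7:96170994-96171243 on the plus strand, was the gene without reads in P13 rods. Capitals mark matches, on either strand, to 4 motifs that share no position here: TAATCC (bound by CRX and OTX2), TAATTA (a general homeodomain motif), CAGATG (an E-box of the NEUROD type) and GGGCGG (a GC box of the SP1 type).
Adgrl1: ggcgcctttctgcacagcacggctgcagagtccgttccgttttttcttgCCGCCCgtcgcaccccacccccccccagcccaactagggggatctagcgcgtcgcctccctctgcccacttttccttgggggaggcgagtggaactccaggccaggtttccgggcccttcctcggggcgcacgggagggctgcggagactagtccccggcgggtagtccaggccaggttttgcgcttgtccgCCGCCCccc
Flrt3: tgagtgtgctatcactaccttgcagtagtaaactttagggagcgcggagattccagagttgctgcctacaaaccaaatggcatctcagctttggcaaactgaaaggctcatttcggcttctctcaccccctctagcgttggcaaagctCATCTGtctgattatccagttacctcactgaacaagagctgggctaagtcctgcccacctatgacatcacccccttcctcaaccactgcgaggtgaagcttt
Flrt2: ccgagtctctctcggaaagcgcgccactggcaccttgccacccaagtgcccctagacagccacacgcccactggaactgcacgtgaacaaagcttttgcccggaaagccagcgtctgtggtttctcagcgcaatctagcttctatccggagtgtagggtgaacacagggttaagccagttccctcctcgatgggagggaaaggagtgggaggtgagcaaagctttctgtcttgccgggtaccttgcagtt
Tenm4: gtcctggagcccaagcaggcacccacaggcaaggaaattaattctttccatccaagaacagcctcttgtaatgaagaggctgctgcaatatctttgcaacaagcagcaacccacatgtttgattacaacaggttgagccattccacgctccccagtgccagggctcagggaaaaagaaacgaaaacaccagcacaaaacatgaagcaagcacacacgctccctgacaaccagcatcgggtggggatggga
The Adgrl1 window held GGGCGG at 201 and 9 bases before the start, in the opposite orientation, and had a GC content of 68.8%, against a median of 52.4% over 32817 windows of the same length. The Flrt3 window held CAGATG in the opposite orientation, 102 bases before the start. Neither the Flrt2 window (57.2% GC) nor the Tenm4 window shown (50.8% GC) held any of the 4 motifs. TAATCC was in none of the 12 windows of the 9 genes. Among all windows, TAATCC was found in 6.25%, TAATTA in 4.85%, CAGATG in 14.5% and GGGCGG in 32.7%. The other 5 genes have RefSeq starts 433 to 291723 bases inside the GENCODE gene, and theirs are not shown. Tenm4 also has a further RefSeq start, 40425 bases inside the gene, whose window is not shown either.

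All 3 latrophilins had higher mean levels in bipolars than in rods or cones at each age, Adgrl1 by the smallest factor. Adgrl2 (chr3:148815583-148990555, minus strand) had 331 and 320.5 CPM in the 2 bipolar libraries at P7, 579 and 642 CPM at P13 and 413 and 429.7 CPM at P30. In rods it had 22.6 and 35.2 CPM at P7, 17.99 and 6.87 CPM at P13 and 0.905 and 0.762 CPM at P30, and in cones 25.8 and 13.6 CPM, 17.1 and 31.8 CPM and 6.77 and 5.42 CPM at the same ages. All 6 bipolar libraries lay above all 12 photoreceptor libraries. Rod bipolars had 429 and 354 CPM, and cone bipolars held the top level, 903 and 875 CPM. In the order of group means, P30 bipolars and rod bipolars overlapped, while cone bipolars and P13 bipolars, the first and second, did not.

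Adgrl1 (chr8:83900105-83941954, plus strand), known as a receptor of the spider toxin α-latrotoxin, was the steadiest member. It had 154 and 132 CPM in bipolars at P7, 126 and 159.7 CPM at P13 and 117 and 130.4 CPM at P30. Rods had 33.1 and 35.3 CPM at P7, 22.2 and 17.5 CPM at P13 and 16.5 and 17.1 CPM at P30, and cones 68.9 and 51.7 CPM, 45.3 and 49.7 CPM and 47.5 and 55.8 CPM. The 3 cell types did not overlap: every bipolar library exceeded every cone library, and every cone library every rod library. The pooled SD of log2 levels between paired libraries was 0.19 for Adgrl1, the smallest of the 9 genes, and 2.59 for Flrt3, the largest.

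Adgrl3 (chr5:81020138-81825133, plus strand), a high-affinity receptor of FLRT3, was low outside bipolar cells. Bipolars had 37.1 and 40.7 CPM at P7, 52.6 and 67.2 CPM at P13 and 46.1 and 32.0 CPM at P30. Rods had 0.963 and 0.526 CPM at P7, 0.738 CPM and no reads at P13 and 1.38 and 0.539 CPM at P30, and cones 5.18 and 1.12 CPM, 1.99 and 3.67 CPM, and no reads and 2.47 CPM. Rod bipolars had 9.16 and 7.21 CPM, whereas cone bipolars had 79.2 and 82.0 CPM.

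Of the teneurins, Tenm2 followed the bipolar pattern. Tenm2 (chr11:36006656-37235964, minus strand) had 76.5 and 77.9 CPM in bipolars at P7, 124 and 148 CPM at P13 and 102 and 122 CPM at P30. In rods it was at 0.120 and 0.0438 CPM, 6 and 2 reads, at P7, at 2.32 and 10.5 CPM at P13 and at 1.90 and 0.0929 CPM at P30. Cones had 8.33 and 2.04 CPM at P7 and 2.50 and 6.86 CPM at P13, and no reads in either P30 library, a state shared by 8.41% of the genes tested. Among the bipolar classes, rod bipolars had 18.1 and 20.4 CPM and cone bipolars 187 and 225 CPM, so that the rod bipolars sat below even the P7 bipolars.

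Tenm3 and Tenm4 were shared between bipolars and photoreceptors. Tenm3 (chr8:48227682-48843951, minus strand) had 37.1 and 46.3 CPM in bipolars at P7, 54.2 and 50.9 CPM at P13 and 71.3 and 95.4 CPM at P30. Rods had 37.4 and 14.1 CPM at P7, 37.2 and 31.2 CPM at P13 and 7.08 and 1.12 CPM at P30, and cones 23.9 and 32.1 CPM, 16.9 and 16.7 CPM and 22.3 and 65.6 CPM. From the third group mean down to the tenth, each group overlapped the next, and only rod bipolars (136 and 101 CPM), P30 bipolars and, at the other end, P30 rods stood apart. Tenm4 (chr7:96171246-96911093, plus strand), which has a known part in myelination, had 14.0 and 11.8 CPM in bipolars at P7, 86.3 and 111 CPM at P13 and 145 and 104 CPM at P30. Rods had 53.8 and 34.4 CPM at P7, no reads in either library at P13 and 0.611 and 0.372 CPM at P30, and cones 35.4 and 33.3 CPM, 63.3 and 72.0 CPM and 69.1 and 73.6 CPM. Rod bipolars had 184 and 229 CPM and cone bipolars 165 and 176 CPM. Bipolars and cones therefore held Tenm4 at all 3 ages, while rods were above 1 CPM at P7 alone, and 8.7% of the genes tested had no reads in both P13 rod libraries.

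Tenm1 (chrX:42527866-43429126, minus strand) was the scarcest teneurin, with 1.67 and 5.10 CPM in P30 bipolars, 2.14 and 4.14 CPM in rod bipolars, 2.22 and 0.0369 CPM in cone bipolars and at most 1.07 CPM in any other library. It had no reads in P7 rods and P30 cones. Its exons overlap those of Sh2d1a on the opposite strand over 1465 bases, and no strand-specific counting is stated, so these low reads cannot be assigned with certainty. Opposite-strand exons of other annotated genes also overlap Adgrl1 (1107 bases with Gm10644, of 8587 exon bases), Adgrl3 (1582 of 17750), Tenm4 (988 of 21021), Adgrl2 (202) and Tenm3 (114).

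The FLRT genes had unlike patterns. Flrt3 (chr2:140650914-140671469, minus strand) had 23.5 and 22.6 CPM in bipolars at P7, 98.1 and 84.4 CPM at P13 and 68.6 and 49.8 CPM at P30. Rods had 1.18 and 1.01 CPM at P7, 7.70 and 0.402 CPM at P13 and 5.75 CPM and no reads at P30, and cones 5.81 and 0.613 CPM, 3.04 and 7.57 CPM, and 0.200 CPM and no reads. Rod bipolars had 14.1 and 7.52 CPM and cone bipolars 125 and 133 CPM, the same order as for Tenm2 and Adgrl3. Flrt2 (chr12:95692226-95785215, plus strand), a ligand of UNC5D, had 9.21 and 17.1 CPM in bipolars at P7, 7.76 and 16.2 CPM at P13 and 58.6 and 65.8 CPM at P30. Rods had 18.1 and 15.5 CPM at P7, 5.87 and 33.3 CPM at P13 and 0.521 and 0.0558 CPM at P30, and cones 9.84 and 7.08 CPM, 3.15 and 1.12 CPM and 4.36 and 20.6 CPM. Neither bipolar class matched the P30 bipolars in Flrt2: rod bipolars had no reads and 5.45 CPM, and cone bipolars 4.21 and 3.58 CPM.

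**Figure D1:**
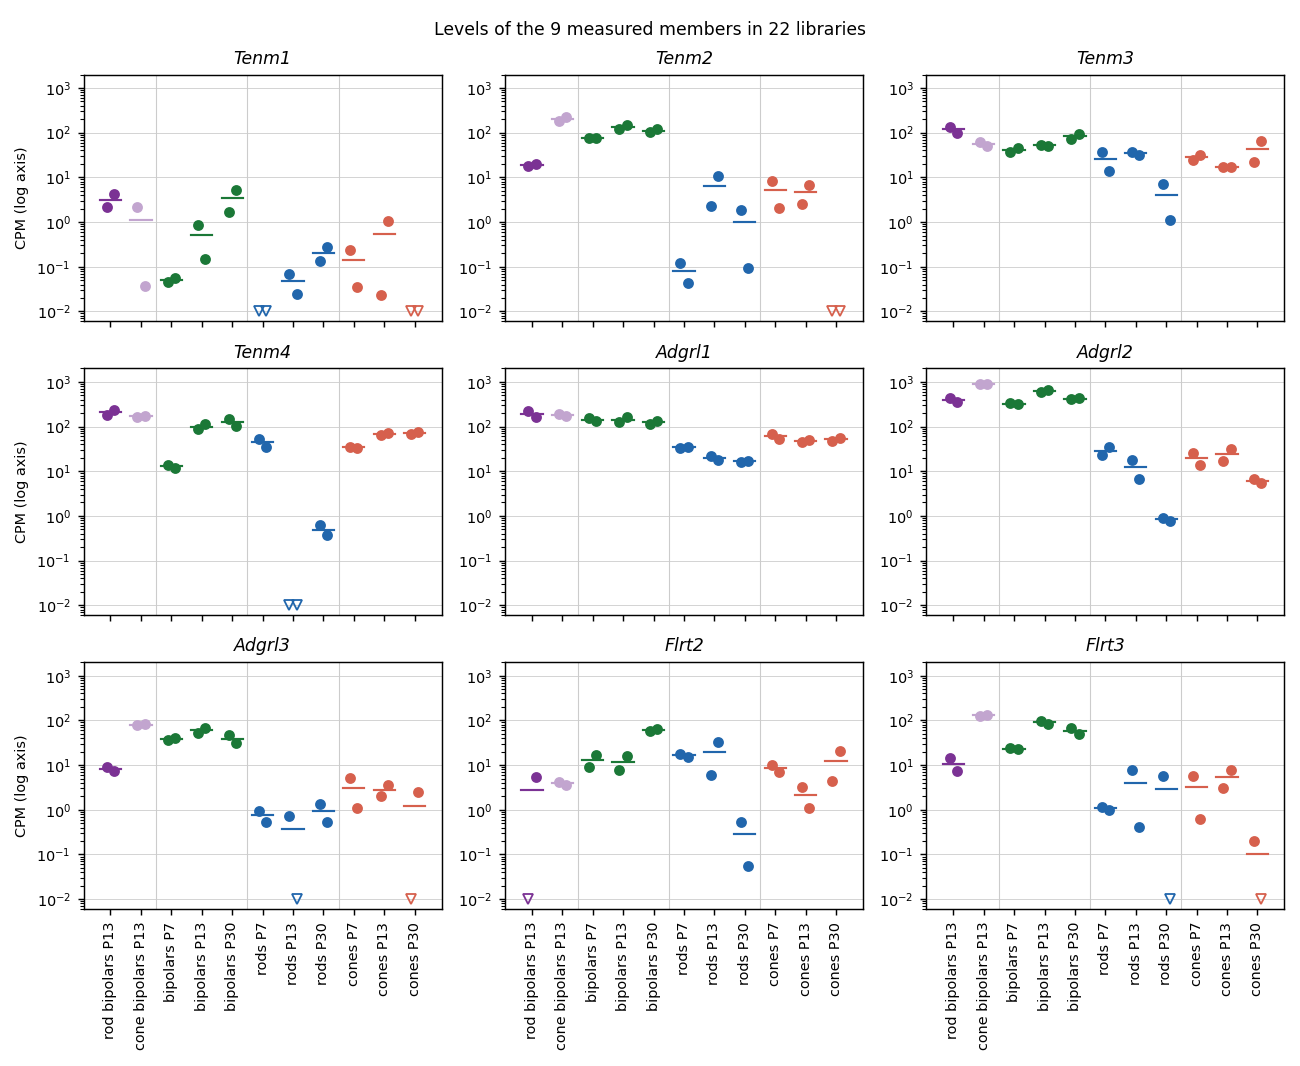
Level of each of the 9 measured genes in all 22 libraries, in CPM on a log axis; a point is a library, a bar is the mean of the 2 libraries of a group, and an open triangle at the bottom is a library without reads. Adgrl2 in bipolars reaches 642 CPM, Tenm4 in rods is without reads at P13 and under 1 CPM at P30, and Tenm3 spans all cell types.

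To set members of a family against each other, levels were divided by exon length (CPM per kb of the union of exons). Orders are of group means, and single libraries can differ. An order is given only where that length and the longest transcript's gave the same one. Among latrophilins, Adgrl2 led in all 5 bipolar groups, with 54.3% to 70.8% of the summed latrophilin level, whereas Adgrl1 led in all 3 cone groups, with 74.6% to 92.3%, and in rods at P13 and P30, with 72.1% and 94.5%. Tenm2 led the teneurins in bipolars at all 3 ages (58.9%, 54.5% and 40.6%) and in cone bipolars (56.7%). Tenm3 led in rods at P13 and P30 (85.6% and 76.7%) and in cones at P7 (56.6%), and Tenm4 in cones at P13 (60.7%). In P7 rods, P30 cones and rod bipolars the lead passed between Tenm3 and Tenm4 with the length used. Flrt3 led the FLRT genes in all 5 bipolar groups (60.2% to 98.1%), and Flrt2 in rods at P7 and P13 (90.6% and 75.3%) and in cones at P7 and P30 (62.4% and 98.7%). Flrt3 also led in rods at P30 (94.1%) and in cones at P13 (79.7%). The Flrt2 lead in P13 rods rested on replicate 2, with 33.3 CPM of Flrt2 and 0.402 CPM of Flrt3. Replicate 1 had the reverse order, with 5.87 CPM of Flrt2 and 7.70 CPM of Flrt3. The Flrt3 lead in P30 rods rested on replicate 1, as replicate 2 had no Flrt3 reads and 3 Flrt2 reads.

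**Figure D2:**
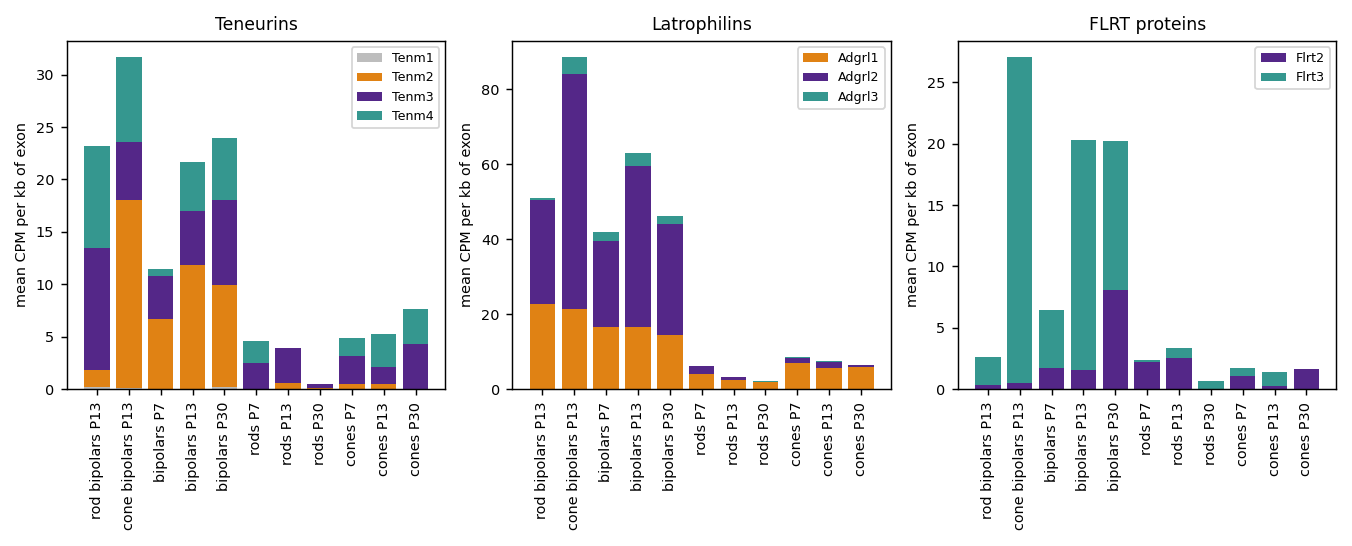
Mean level per kb of exon of each gene, stacked by family, in the 11 groups; bars start at 0 and each panel has its own axis in CPM per kb. Bipolar groups carry the tallest bars of each family, except for the FLRT bar of rod bipolars. That bar (2.58 CPM per kb) is lower than that of P13 rods (3.37 CPM per kb). The P13 rod bar rests largely on replicate 2, with 33.3 CPM of Flrt2 against 5.87 CPM in replicate 1.

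Read as possible pairs at P13, both sides of a photoreceptor contact held genes of each family, in unequal amounts. On the same scale, latrophilins summed to 50.8 CPM per kb in rod bipolars and 88.5 in cone bipolars, and their possible teneurin partners to 3.90 in rods, mostly Tenm3, and 5.30 in cones, mostly Tenm4. In the other orientation, teneurins summed to 23.2 CPM per kb in rod bipolars and 31.7 in cone bipolars, and latrophilins to 3.21 in rods and 7.41 in cones. For the FLRT genes the sums were 2.58 in rod bipolars and 27.05 in cone bipolars, against 3.37 in rods and 1.37 in cones. The rod sum rests largely on replicate 2, with 33.3 CPM of Flrt2 against 5.87 CPM in replicate 1. Within the bipolars themselves, teneurins (21.7), latrophilins (63.0) and Flrt3 with Flrt2 (20.3) were all present at P13, so that each family had possible partners in the same sort. All these sums use the union of exons, and their sizes depend on that length. Adgrl2 in cone bipolars was at 62.6 CPM per kb that way, and at 147 by the longest transcript.

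Set against rods, bipolars had more RNA of 4 to 8 of the 9 genes, with the most at P30. Of the 9 genes, 4 were called higher and 1 lower at P7, 5 higher and none lower at P13, and 8 higher and none lower at P30. A gene was called when its limma p-value, adjusted across the table, was under 0.05 and the log2 fold change reached 1 in either direction. No member was lower at P13 or P30 at an unadjusted p under 0.05 either, or with voom. Over 13405 genes, 16.5% were called higher and 12% lower at P7, 25.2% and 15.0% at P13, and 22% and 15.7% at P30. The share of all calls that were higher, 57.9%, 62.7% and 58.4%, ranged over 3 other scalings from 47.6% to 66.2% at P7, 46.8% to 77.7% at P13 and 44.0% to 63.2% at P30. The median log2 fold change of the members was 3.01 at P7, or 2.79 without Tenm1, which was under the floor in both groups. It was 4.77 at P13 and 7.99 at P30, with medians over all genes of 0.19, 0.27 and 0.08.

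Adgrl1 exceeded its rod level in bipolars by 2.06 ± 0.21 (log2, SE) at P7, by 2.84 ± 0.21 at P13 and by 2.88 ± 0.21 at P30, with adjusted p-values of 2.5e-06, 4.9e-08 and 5e-08. Adgrl2 was higher by 3.53 ± 0.40, 5.78 ± 0.40 and 8.97 ± 0.40 (adjusted p = 7e-06, 2.2e-08 and 3.5e-10), and at P30 its ratio of mean levels was 505. Both held under every alternative tried. Adgrl3 was higher, with values of 5.76, 9.66 and 5.46 (SE 2.10 each) (adjusted p = 0.046, 0.0016 and 0.046). The Adgrl3 calls at P7 and P30 were lost when any 1 of their 4 libraries was left out, with log2 fold changes of 5.32 to 6.19 at P7 and 4.79 to 6.13 at P30 and adjusted p-values of 0.11 to 0.16 and 0.09 to 0.19. At P13 the Adgrl3 value was 6.32 without the rod replicate 2, which had no reads (adjusted p = 0.029), and 12.997 without the rod replicate 1, and with only the groups compared the adjusted p was 0.078.

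Tenm2 was higher in bipolars than in rods at each age, by 9.90 ± 1.13, 4.77 ± 1.13 and 7.99 ± 1.13 (log2, SE; adjusted p = 7.1e-06, 0.0029 and 4.3e-05), and kept these calls under every alternative. Tenm4 changed side. At P7 it was lower in bipolars, by a log2 fold change of -1.74 ± 0.33 (adjusted p = 0.00078). At P13 rods had no reads, and bipolars exceeded them by at least 2244-fold. The limma adjusted p there, 5e-13, depends on the value given to no reads and does not test that bound. Over the alternatives the P13 log2 fold change ran from 6.63 to 14.06. At P30 Tenm4 was higher in bipolars by 7.99 ± 0.33 (adjusted p = 3.4e-10). All 3 Tenm4 calls held under every alternative. Tenm3 had a log2 fold change of 0.85 ± 0.66 at P7 and 0.62 ± 0.66 at P13, neither of which passed (adjusted p = 0.36 and 0.46), and was higher by 4.87 ± 0.66 at P30 (adjusted p = 3.1e-05). For Tenm1 the adjusted p was 0.11 at P30, the lowest of the 3 ages.

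Flrt3 had log2 fold changes of 4.39 ± 2.26 at P7 and 5.68 ± 2.26 at P13 in bipolars over rods that missed the threshold (adjusted p = 0.15 and 0.05), although the libraries did not overlap, and was higher by 8.16 ± 2.26 at P30 (adjusted p = 0.0089). The P30 value rests on 1 rod library without reads: without rod replicate 2 it was 3.34 (adjusted p = 0.17). At P13 the Flrt3 difference passed without rod replicate 1, at 7.79 (adjusted p = 0.026). Flrt2 did not differ in a called way at P7 or P13 (log2 fold changes of -0.42 and -0.32, adjusted p = 0.9 and 0.91), and was higher in bipolars at P30 by 8.41 ± 2.02 (adjusted p = 0.0036). In the same P30 bipolar libraries the 6 Müller glia markers summed to 4787 and 7535 CPM, against 801 and 1014 CPM in P13 bipolars and 277 and 145 CPM in P30 rods. The 4 microglia markers summed to 119 and 295 CPM, the 4 vascular markers to 352 and 459 CPM and the 7 amacrine markers measured to 530 and 653 CPM. Their part in the Flrt2 difference was not tested.

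**Figure D3:**
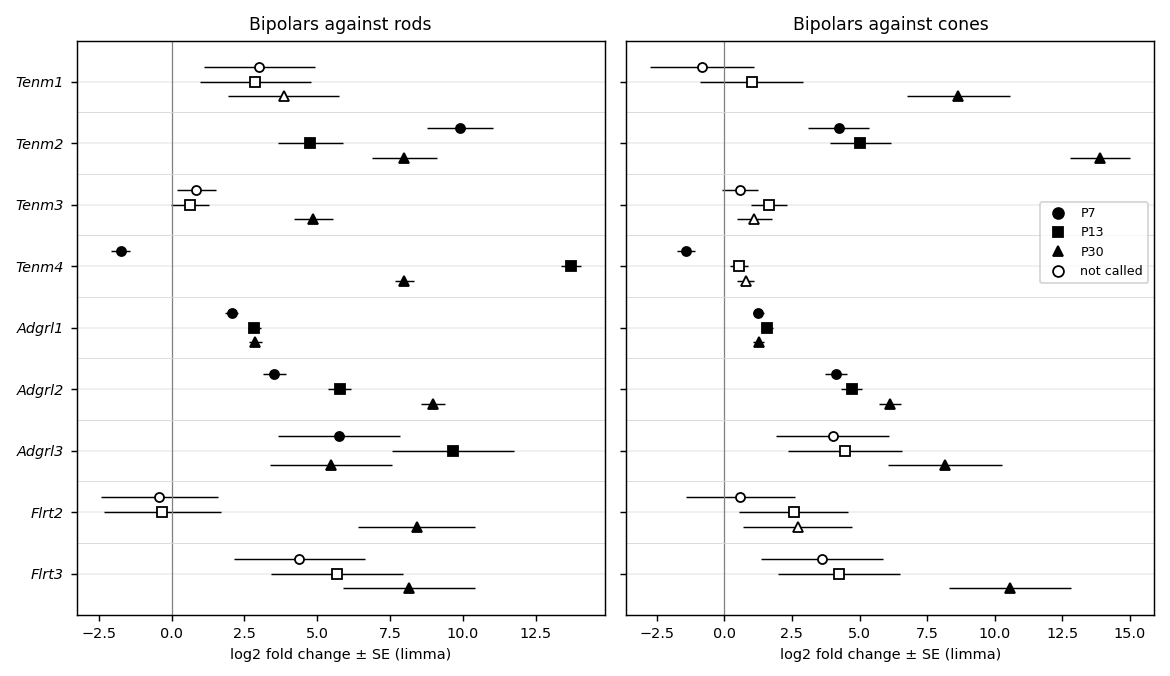
Log2 fold change of each gene with its SE (limma), bipolars over rods on the left and bipolars over cones on the right; circles are P7, squares P13 and triangles P30, and filled symbols passed the test. Tenm4 lies left of 0 at P7 in both panels, and Adgrl1 and Adgrl2 are filled throughout. Fold changes of Tenm1 at P7 and Tenm4 at P13 over rods and of Tenm1 and Tenm2 at P30 over cones are set against groups without reads.

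Set against cones, Adgrl1, Adgrl2 and Tenm2 were higher in bipolars at every age. At P7 3 of the 9 were called higher in bipolars and 1 lower, at P13 3 higher and none lower, and at P30 6 higher and none lower. With voom 5, 6 and 7 were called higher at the 3 ages, against 5, 6 and 9 for bipolars over rods. Tenm1 is in the P30 count over cones with limma, and in the P30 counts over cones and over rods with voom. It passed the filter on low values only through P30 bipolars and rod bipolars, and so lends these counts no support. The shares over all genes tested were 5.4% higher and 10.2% lower at P7, 11.7% and 10.5% at P13, and 19.3% and 11.1% at P30. Of all calls, 34.7%, 52.6% and 63.5% were higher, and over the 3 other scalings 40.4% to 44.8%, 47.8% to 73.3% and 43.9% to 86.5%. The member medians were 1.26, 2.57 and 6.12 (log2), the last 6.06 with genes without reads at their bound, and the medians over all genes 0.01, 0.08 and 0.14. The P30 median includes Tenm1. Without Tenm1 it lies between the values of Flrt2 (2.71) and Adgrl2 (6.12).

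Adgrl1 in bipolars over cones was higher by 1.26 ± 0.21, 1.58 ± 0.21 and 1.26 ± 0.21 (log2, SE; adjusted p = 0.0005, 5.3e-05 and 0.00033) and Adgrl2 by 4.12 ± 0.40, 4.71 ± 0.40 and 6.12 ± 0.40 (adjusted p = 2.1e-06, 5e-07 and 3.6e-08), each under every alternative. Tenm2 was higher by 4.23 ± 1.13 at P7 (adjusted p = 0.014) and 5.02 ± 1.13 at P13 (adjusted p = 0.0039). At P30 cones had no reads, and Tenm2 was at least 2196-fold higher in bipolars. The limma adjusted p there, 3.5e-07, does not test that bound. The Tenm2 call at P7 was lost without cone replicate 2 (3.21, adjusted p = 0.16), without bipolar replicate 1 (4.24, adjusted p = 0.081) and without bipolar replicate 2 (4.21, adjusted p = 0.087).

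At P30 Tenm1 had 55 and 137 reads in bipolars and none in cones, a ratio of at least 66.6, given as a description only. Adgrl3 was not called over cones at P7 (4.01 ± 2.10, log2 with SE, adjusted p = 0.21) or P13 (4.45 ± 2.10, adjusted p = 0.13), nor Flrt3 (3.60 ± 2.26 and 4.24 ± 2.26, adjusted p = 0.31 and 0.19), although bipolar and cone libraries did not overlap. With voom all 4 were called: for Adgrl3 the adjusted p-values were 0.0015 and 0.0007, and for Flrt3 0.029 and 0.00064. At P30 Adgrl3 was higher by 8.16 ± 2.10 (adjusted p = 0.0071), and by 3.95 without cone replicate 1, the library without Adgrl3 reads (adjusted p = 0.12). Flrt3 at P30 was higher by 10.56 ± 2.26 (adjusted p = 0.0021) under every alternative, with 5 reads in 1 of the 2 cone libraries and none in the other. Tenm4 was lower in bipolars at P7, by a log2 fold change of -1.42 ± 0.33 (adjusted p = 0.006), and without bipolar replicate 2 that was -1.30 (adjusted p = 0.067). At P13 and P30 its libraries did not overlap, with bipolars above cones by 0.54 and 0.78, but no call was made (adjusted p = 0.26 and 0.076). Tenm3 had values of 0.58, 1.64 and 1.11 with adjusted p-values of 0.63, 0.08 and 0.21. At each age its bipolar and cone libraries did not overlap. The P13 difference was called with log2(CPM + 1), the 3 other scalings, voom, array quality weights and only the groups compared. The P30 difference was called with plain read totals alone. Flrt2 at P30 had 62.2 ± 5.04 CPM in bipolars and 12.5 ± 11.5 CPM in cones (SD, n = 2 each), a difference that missed the threshold with an adjusted p of 0.32.

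Between the 2 photoreceptors, few members were called at P7 and P13, and most calls at P30 were lower in rods. At P7 no gene of the 9 was called higher in rods and 1 was lower. At P13 none was higher and 2 were lower, and at P30 1 was higher and 4 were lower. Over all genes, 3.3% were called higher and 9.52% lower at P7, 7.1% and 14.1% at P13, and 9.98% and 10% at P30. The member counts at P7 and P13 were thus close to what the shares over all genes give. The higher share of calls, 25.7%, 33.5% and 49.9%, was 20.3% to 39.6%, 23.8% to 43.9% and 46.1% to 78.8% over the 3 other scalings. The member medians were -0.79, -1.27 and -1.62 (log2), beside -0.16, -0.11 and 0.14 for all genes.

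Tenm4 carried the widest difference. At P7 rods and cones overlapped in Tenm4 (0.33 ± 0.33, log2 with SE, adjusted p = 0.59). At P13 rods were at least 1539-fold lower than cones, a bound that the limma adjusted p of 9.2e-13 does not test. At P30 rods were lower with a log2 fold change of -7.20 ± 0.33 (adjusted p = 1.1e-09). The P30 levels were 0.491 ± 0.169 CPM in rods and 71.4 ± 3.19 CPM in cones (SD, n = 2 each). Both calls held under every alternative. Tenm3 was lower in rods at P30 by -3.76 ± 0.66 (adjusted p = 0.00068). Adgrl1 was lower at P13 by -1.27 ± 0.21 (adjusted p = 0.00048) and at P30 by -1.62 ± 0.21 (adjusted p = 5.1e-05). At P7 its difference of -0.80 was under the size needed for a call (adjusted p = 0.017), with no overlap between the libraries. Adgrl2 was lower in rods at P30 by -2.85 ± 0.40 (adjusted p = 9.6e-05), and with voom on recovered reads the adjusted p was 0.096. With only the groups compared, Tenm3 and Adgrl2 at P30 and Adgrl1 at P13 were not called (adjusted p = 0.2, 0.16 and 0.1).

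Tenm2 ran both ways. It was lower in rods at P7 by -5.68 ± 1.13 (adjusted p = 0.0028), with 8.33 and 2.04 CPM in cones; without cone replicate 1 the value was -4.66 (adjusted p = 0.053). At P30 Tenm2 was at least 19.6-fold higher in rods, a bound that the limma adjusted p of 0.0013 does not test. The rod level was itself low, 84 and 5 reads, and the cones had none. On the log2(CPM + 1) scale the Tenm2 difference was 0.83 (adjusted p = 0.34). Flrt2 at P30 missed narrowly, at -5.70 ± 2.02 (adjusted p = 0.051). The rod marker sums in cones, 3279 to 9803 CPM, are given above, and their part in these contrasts was not tested.

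With age, rods lost Tenm4 from P7 to P13 and RNA of 4 other members after P13, while bipolars gained Tenm4 from P7 to P13. Of the 4 falls, those of Tenm2 and Flrt2 came near the threshold. Both were lost with plain read totals, totals without mitochondrial transcripts, no intensity trend and array quality weights. The Tenm2 fall was also lost with voom and with a replicate block. From P7 to P13, rods had 1 gene called higher and 2 lower (5.62% and 7.02% of all genes; the higher share of calls, 44.5%, was 23.5% to 44.2% over other scalings). In cones no gene was called (0.216% and 0.224%) with limma or with voom, and 1, Tenm4, had an unadjusted p under 0.05, and in bipolars 1 was higher (2.3% higher and 0.686% lower overall). From P13 to P30, rods had 1 higher and 4 lower (6.74% and 5.3%; higher share 56.0%, over other scalings 41.7% to 71.8%). Cones had 2 lower (0.85% higher and 2.35% lower; higher share 26.6%, over other scalings 5.45% to 38.5%), and bipolars none (1.4% and 0.47%), with limma, with voom or at an unadjusted p under 0.05.

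In rods Tenm4 fell from P7 to P13 by at least 1003-fold. It was at least 11.2-fold higher at P30 than at P13, at 27 and 20 reads. The limma adjusted p-values of these steps, 2e-12 and 4.9e-08, do not test the bounds. The second step did not hold on the log2(CPM + 1) scale, 0.57 (adjusted p = 0.17), or with voom, 5.02 (adjusted p = 0.05). Tenm3 fell in rods after P13, by -3.59 ± 0.66 (log2, SE; adjusted p = 0.0021). Adgrl2 fell at both steps, by -1.34 ± 0.40 (adjusted p = 0.032) and -3.73 ± 0.40 (adjusted p = 3.3e-05). Its first step was -1.02 without the P7 rod replicate 2 (adjusted p = 0.23) and -0.65 without the P13 rod replicate 2 (adjusted p = 0.3). Tenm2 was higher in rods at P13 than at P7 by 5.94 ± 1.13 (adjusted p = 0.0025) and lower at P30 than at P13 by -3.50 ± 1.13 (adjusted p = 0.047). The first of these Tenm2 steps was lost with array quality weights (adjusted p = 0.08). It was also lost with only the groups compared (adjusted p = 0.31), where no gene at all was called. The fall after P13 was -2.41 without the P13 rod replicate 2 and -1.38 without the P30 rod replicate 2, with adjusted p-values for Tenm2 of 0.29 and 0.42. Flrt2 fell in rods after P13 by -6.26 ± 2.02 (adjusted p = 0.048), which was -5.01 without the P13 replicate 2, -7.79 without the P30 replicate 1 and -4.73 without the P30 replicate 2 (adjusted p for Flrt2 of 0.24, 0.08 and 0.24).

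In cones Tenm2 fell after P13 by at least 92.0-fold, a bound that the limma adjusted p of 0.00051 does not test. Adgrl2 fell in cones by -1.95 ± 0.40 (log2 with SE, adjusted p = 0.015). Without the P13 cone replicate 2 the Adgrl2 value was -1.50, and the call was lost. In bipolars Tenm4 rose from P7 to P13 by 2.93 ± 0.33 (adjusted p = 5.2e-05), a ratio of means of 7.66, under every alternative. No other member passed in bipolars at either step. Adgrl1 in bipolars differed by -0.01 and -0.20 over the 2 steps, with adjusted p-values of 1.0 and 0.8. When only the 2 groups compared entered the fit, none of the 7 calls from P13 to P30 remained. From P7 to P13 all 3 rod calls were lost, with adjusted p-values of 0.16 for Tenm4, 0.31 for Tenm2 and 0.51 for Adgrl2. In rods and cones that setting called 0 of the 13405 genes at either step, so these losses are not particular to the members. The 2 steps of each cell type share the P13 libraries.

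**Figure D4:**
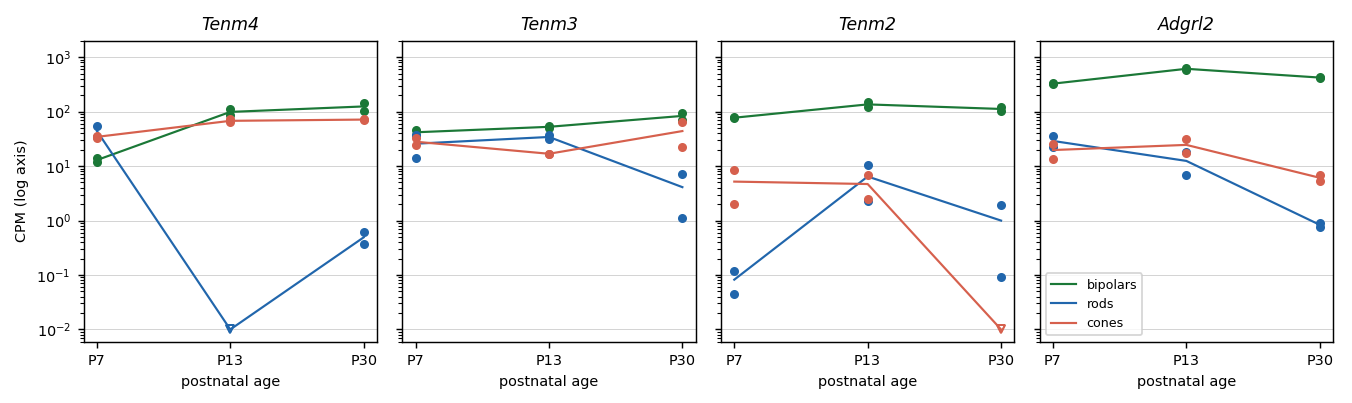
Level of Tenm4, Tenm3, Tenm2 and Adgrl2 at P7, P13 and P30 in bipolars (green), rods (blue) and cones (red), in CPM on a log axis; points are libraries, lines join group means, and open triangles are libraries without reads. The Tenm4 lines cross between P7 and P13, and the rod line of Adgrl2 ends at 0.834 CPM.

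Whether the course from P7 to P30 itself differed between cell types was tested directly. Rods minus cones gave 1 higher and 3 lower calls among the 9 genes, with 6.04% and 4.57% over all genes. Bipolars minus rods gave 4 higher and none lower (8.26% and 6.17%), and bipolars minus cones 4 higher and none lower (5.8% and 2.51%), of which 1 was Tenm1, admitted by its level in P30 bipolars. The higher share of calls was 56.9% for rods minus cones, 42.6% to 90.1% over other scalings, and 69.8% for bipolars minus cones, 50.1% to 94.8% over other scalings. Tenm4 and Adgrl2 were called in all 3. The change in Tenm4 was more negative in rods than in cones by -7.53 ± 0.47 (log2, SE; adjusted p = 6.8e-07), and more positive in bipolars than in rods by 9.73 ± 0.47 (adjusted p = 5.3e-09) and than in cones by 2.20 ± 0.47 (adjusted p = 0.0094). For Adgrl1 no difference in change passed, the adjusted p-values being 0.097, 0.081 and 1.0. These 3 contrasts share libraries pairwise. Bipolars minus cones is the sum of the other 2, so a call in all 3 is not 3 separate results.

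The 2 bipolar classes were set against each other at P13, where the mean levels of Tenm2, Adgrl3 and Flrt3 were 9.84 to 11.9 times higher in cone bipolars and yet not called. No gene of the 9 was called in either direction, while 1.51% of all genes were called higher and 3.17% lower in rod bipolars. At an unadjusted p under 0.05, limma had 2 of the 9 lower and none higher, and voom on recovered reads called 4 lower. Rod bipolars over cone bipolars gave log2 fold changes of -3.41 ± 1.13 for Tenm2, -1.19 ± 0.40 for Adgrl2, -3.31 ± 2.10 for Adgrl3 and -3.65 ± 2.26 for Flrt3, and the libraries of the 2 classes overlapped for none of these 4. Their adjusted p-values were 0.099, 0.11, 0.48 and 0.46. The ratios of cone bipolar to rod bipolar mean levels were 10.7, 2.27, 9.84 and 11.9 in that order.

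The common fit takes its spread from all 11 groups, and for these 4 genes 97.5% to 99.6% of that spread came from the rod and cone libraries. When only the 2 bipolar classes entered the fit, all 4 were called: Tenm2 with an adjusted p of 0.0056, Adgrl2 with 0.031, Adgrl3 with 0.01 and Flrt3 with 0.019. The same 4 were called on the log2(CPM + 1) scale and with voom on recovered reads, and Tenm2 and Adgrl2 also with quantile normalization and with array quality weights. Tenm3 was at 118 ± 24.9 CPM in rod bipolars and 56.8 ± 8.40 CPM in cone bipolars (SD, n = 2 each), without overlap and without a call (1.05 ± 0.66, adjusted p = 0.47). For Tenm4 the log2 fold change was 0.27 ± 0.33 (adjusted p = 0.79) and for Adgrl1 0.08 ± 0.21 (adjusted p = 0.93). Flrt2 was called lower in rod bipolars only without rod bipolar replicate 2, which leaves the library without reads (-9.06, adjusted p = 0.00099); without replicate 1 the value was 0.49.

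**Figure D5:**
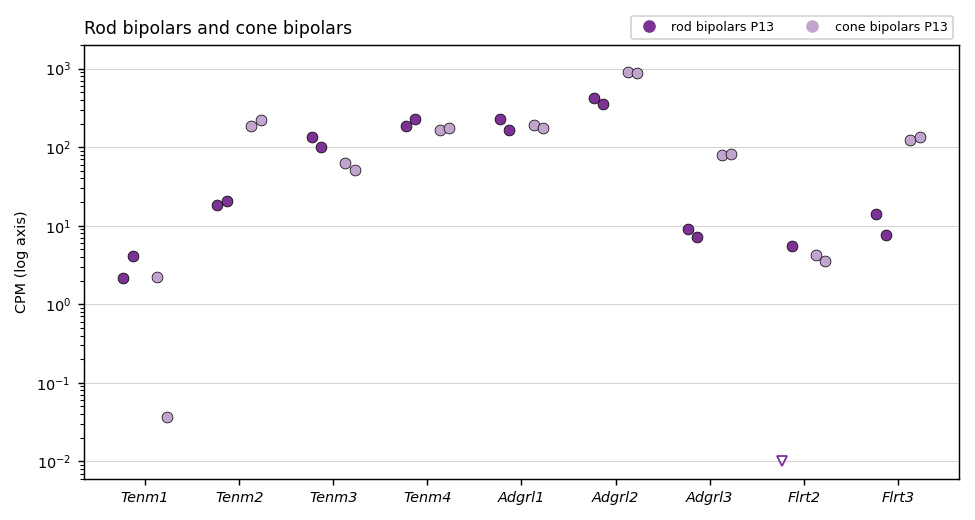
Level of each gene in the 2 rod bipolar and 2 cone bipolar libraries at P13, in CPM on a log axis; the open triangle is a rod bipolar library without Flrt2 reads. Tenm2, Adgrl2, Adgrl3 and Flrt3 lie lower in rod bipolars, and Tenm3 higher, without overlap.

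Other genes of the same adhesion system gave a wider view. Of 21 known partners and relatives, chosen by name, 19 were in the table. Among these, Adgrl4 passed the filter on low values only through P30 bipolars and rod bipolars. It therefore lends no support to the counts of partners higher in bipolars. Against rods, bipolars had 10 of the 19 called higher and none lower at P7 (16.5% and 12% of all genes), 13 higher and 1 lower at P13 (25.2% and 15%), and 13 higher and 1 lower at P30 (22% and 15.7%). Nrxn3, a neurexin of the presynaptic membrane, averaged 1431 CPM in bipolars and 8.59 CPM in rods at P30 (log2 fold change 7.75, adjusted p = 2.3e-08). Shank2, a postsynaptic scaffold whose family binds latrophilins, averaged 108 CPM in bipolars and 1.53 CPM in rods at P13 (adjusted p = 0.00021). Robo2, a Slit receptor, averaged 239 CPM in bipolars and 0.166 CPM in rods at that age (adjusted p = 4e-05). Cntn6, a contactin, averaged 33.0 CPM in bipolars at P13, where rods had no reads, and was at least 750-fold higher. The limma adjusted p for Cntn6, 4.6e-05, does not test that bound.

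Against cones, 4 of the 19 were called higher and 1 lower in bipolars at P7 (5.4% and 10.2% of all genes), 4 and none at P13 (11.7% and 10.5%), and 11 and 1 at P30 (19.3% and 11.1%). Rods against cones gave 1 higher and 4 lower at P7 (3.3% and 9.52%), 1 and 8 at P13 (7.1% and 14.1%), and 3 and 4 at P30 (9.98% and 10%). The UNC5 receptors of FLRT proteins split among the cell types. Unc5d averaged 61.7 CPM in bipolars and 8.26 CPM in cones at P7 (log2 fold change 2.91, adjusted p = 0.00091). It fell in rods after P13 by -4.44 (adjusted p = 7.2e-05). Unc5b had no reads in rods at P13 and averaged 23.1 CPM in cones, so that rods were at least 526-fold lower. The limma adjusted p for Unc5b, 0.00016, does not test that bound. Unc5c was higher in rods than in cones at P7, with means of 29.96 and 2.05 CPM (log2 fold change 4.14, adjusted p = 0.0012), and Unc5a was lower in bipolars than in cones at P7, 1.59 against 16.8 CPM (-3.43, adjusted p = 0.0087). Between rod bipolars and cone bipolars none of the 19 was called. Adgrl4, a relative better known from blood vessels, reached 14.9 CPM in P30 bipolars, in the libraries with the high glial and vascular marker sums given above.

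As a description over the 11 group means of log2 levels, with libraries shared by every pair, Tenm2 and Flrt3 had a Pearson r of 0.95, Adgrl1 and Adgrl2 of 0.92 and Adgrl2 and Flrt3 of 0.91, while Flrt2 had r between -0.29 and 0.39 with the other 8. Among 13396 other genes tested, the closest to Adgrl2 were Tubb4a and Parp8 (r = 0.98 each), to Adgrl3 Gfra1 (0.99) and Nlgn1 (0.98), and to Adgrl1 Zwint (0.99) and Mapt (0.98). The closest to Tenm2 were Slc39a11 and Igfbp5 (0.96 each), to Tenm3 Trim9 and Amigo2 (0.96 each), to Tenm4 Slc4a3 (0.98) and Mid2 (0.97) and to Tenm1 Nebl (0.98) and Il22 (0.96). For Flrt3 they were Ptprt and Clec2l (0.97 each), and for Flrt2 Txnip (0.94) and Glud1 (0.93). With levels scaled to plain read totals the second gene became Mgat3 for Adgrl1 and Snu13 for Flrt2. Libraries without reads enter the means at -7.10, so r for members with such libraries depends on that value. These r were not computed on the log2(CPM + 1) scale.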

How the data were processed

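Messenger RNA of sorted retinal cells was amplified in a linear fashion and sequenced, 22 libraries in all, per the labels' protocols. Per the submitters' processing notes, the authors used STAR and edgeR with GRCm38 (mm10). Their counter, annotation and gene filter were not stated. The deposited values are log2 CPM for 13812 Ensembl genes, and a gene without reads stands at -7.10 in every library. With that floor taken off on the linear scale, 100% of values came out as whole reads within 0.01. CPM in the text are these values, and the deposited scaling used 0.608 to 1.23 times the read totals. The 27 identifiers without a symbol held 0.109% of reads and were left out.

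Tests used limma 3.58.1 in R 4.3.3 on the deposited log2 values: 1 fit of all 22 libraries (11 group means, which leaves 11 degrees of freedom), empirical Bayes with an intensity trend, and Benjamini-Hochberg adjustment over the 13405 genes tested (380 filtered out). The fit was tested on simulated data. The 19 comparisons and 9 members gave 171 tests. A fold against a group without reads is given as a bound from 3 reads over the group. The adjusted p beside such a bound is from the limma fit and does not test the bound. In that fit all libraries without reads have the same value, so such a group adds no spread. Intervals and floors cover counting error only. Members, comparisons and lists were chosen with earlier results of these data known. Named genes were all members, up to 6 called partners per comparison by size of change, and the 2 genes closest to each member. Alternatives were no filter, a stricter filter (log2 CPM of 2), log2(CPM + 1), 3 other scalings, voom, no intensity trend, array quality weights, only the groups compared, a replicate block, and each library left out.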

Additional observations from a re-analysis of the deposited data

Results flagged for a closer look

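The course from P7 to P30 differed between cell types, by a test of the difference itself, for 5 of the 9 genes, and for Tenm1 with the limit given below. Over all genes, 6.04% were called higher and 4.57% lower for rods minus cones. The shares were 8.26% and 6.17% for bipolars minus rods, and 5.8% and 2.51% for bipolars minus cones. The last contrast is the sum of the other 2, so the 3 are not separate results. Tenm4 differed in all 3 contrasts: -7.53 (log2) for rods minus cones, 9.73 for bipolars minus rods and 2.20 for bipolars minus cones. So did Adgrl2, with -3.45, 5.44 and 2.00 (SE 0.57 each). For Tenm3 the values were -3.49 for rods minus cones and 4.02 for bipolars minus rods (SE 0.93 each). For Tenm2 they were 11.58 for rods minus cones and 9.68 for bipolars minus cones (SE 1.59 each). As P30 cones had no Tenm2 reads, these sizes depend on the value given to no reads and are not bounds: on the log2(CPM + 1) scale they were 3.13 (adjusted p = 0.025) and 2.93 (adjusted p = 0.024). Tenm1 gave 9.48 for bipolars minus cones (SE 2.70, adjusted p = 0.041), with no reads in P30 cones. Tenm1 passed the filter on low values only through P30 bipolars and rod bipolars, so this value is a description, and on the log2(CPM + 1) scale it was 2.12 (adjusted p = 0.051). Flrt2 gave 8.83 for bipolars minus rods (SE 2.86, adjusted p = 0.049). This Flrt2 call was lost with plain read totals, with totals without mitochondrial transcripts and with no intensity trend. The Tenm1 and Flrt2 values, and that of Adgrl2 for bipolars minus cones, came near the threshold. Without any 1 of the 8 libraries used, the Tenm1 and Flrt2 calls were lost, with values of 8.22 to 10.74 for Tenm1 and 7.30 to 10.36 for Flrt2. The Adgrl2 call for bipolars minus cones (adjusted p = 0.041) was lost without any 1 of 7 libraries, with 1.54 to 2.16, and held without the P7 cone replicate 2. The Tenm3 call for rods minus cones (adjusted p = 0.027) was lost without the P7 rod replicate 1 (-2.78), the P30 rod replicate 2 (-2.16), either P7 cone library (-3.28 and -3.70) or the P30 cone replicate 2 (-2.71).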

How the results depend on the processing

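Of the 171 member tests, 62 were called, 32 of these under every alternative, and 30 were lost under at least 1; of the 109 not called, 37 were gained under at least 1, and no call changed direction. Rods against cones had 8 calls over the 3 ages, and 4 with only the groups compared, of which Tenm1 at P30 was gained. Lost there were Tenm2 at P7 and P30, Tenm3 and Adgrl2 at P30 and Adgrl1 at P13. From P7 to P13 there were 4 calls, and 2 with array quality weights and with only the groups compared. In the latter all 3 rod calls (Tenm2, Tenm4 and Adgrl2) were lost and Flrt3 in bipolars was gained. From P13 to P30 there were 7, and 4 with voom and with array quality weights and 0 with only the groups compared. In rods and cones that last setting called 0 of the 13405 genes at either step, so its losses there are not particular to the members. Rod bipolars against cone bipolars had 0, but 4 with log2(CPM + 1), with voom and with only the groups compared, 2 with quantile normalization and with array quality weights, and 1 without rod bipolars replicate 2. Only the groups compared leaves 2 libraries a group to set the spread. Leaving out 1 library at a time gave 7 to 10 calls for rods against cones, 16 to 19 for bipolars against rods (18 with all libraries), 11 to 13 for bipolars against cones (13), 3 to 5 from P7 to P13, 5 to 8 from P13 to P30, 0 to 1 between bipolar classes and 9 to 12 for differences in change (12); the lone library left is then assumed to vary like the other groups. With the replicate number as a block the counts were 8, 17, 13, 4, 6, 0 and 12 in the order just given. The numbers are not shown to pair libraries: over 55 pairs of groups, deviations of same-numbered libraries correlated at -0.24 to 0.26, with a median of 0.01. The 3 other scalings moved the median of all genes by -0.41 to 0.73 (log2) and shifted the share of higher calls by over 10 points in 17 of the 19 comparisons. Few or no reads lay behind Tenm1 in most groups, Tenm2 in P7 and P30 rods and P30 cones, Adgrl3 and Flrt3 in single photoreceptor libraries, and Flrt2 in P30 rods and 1 rod bipolar library.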
